A study of Mus musculus with 14 samples.

Results

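The antigen presentation genes described here were B2m, H2-K1, H2-D1, Tap1, Tap2, Tapbp, Cd74, H2-Aa, H2-Ab1 and Ciita, picked by name. All 10 were found among the 20550 genes listed for each library. The RNA came from mammary glands on day 10 of lactation of mice with the genotype WT/wTbrg4, and 2 libraries numbered as replicates were made from total RNA. These mice carry an intact allele beside a fusion allele in which a CRISPR/Cas9 deletion joined the super-enhancer and promoter of the milk protein gene Wap to Tbrg4, so both libraries share the fusion. The Wap promoter is active in the secretory epithelium of the mammary gland. The founder zygotes were C57BL/6, and the age of the mice is not given in the sources used here. RNA of other genotypes was not analysed here, so the design holds no contrast between groups. The labels do not say whether each library came from a separate mouse, so the spread between the libraries may be technical.

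MHC class I molecules are made of a heavy chain, such as those encoded by H2-K1 and H2-D1, and the light chain beta-2 microglobulin, encoded by B2m. They display peptides from inside the cell to CD8 T cells, and most cell types express them. Peptides reach them in the endoplasmic reticulum through the transporter formed by Tap1 and Tap2, which tapasin, the product of Tapbp, bridges to empty class I molecules. MHC class II molecules, such as the pair of chains encoded by H2-Aa and H2-Ab1, display peptides from endosomes to CD4 T cells. Cd74 encodes the invariant chain that escorts class II molecules, and Ciita encodes the transactivator that switches class II genes on. Class II is best known from dendritic cells, macrophages and B cells, and epithelial cells can make it after interferon gamma.

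Levels are given as FPKM, fragments scaled to gene length and library size, for the collapsed exons and for the introns of each gene, as the authors deposited them with 1 decimal. FPKM is a value per length, so levels of different genes can be set side by side only with limits. Base composition and reads that match several places, both described below, can shift the level of 1 gene against another. The sequencing depth behind the values is unknown, so no counting error can be given. Of the 10 genes, 8 had values above 0. H2-D1 and H2-Ab1 were listed at 0 for exons and for introns in both libraries.

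By mean exon FPKM, the order of the 8 genes was B2m, Cd74, H2-K1, H2-Aa, Tapbp, Tap2, Tap1 and Ciita. The ranges of the 2 libraries overlapped between Cd74 and H2-K1 and between H2-K1 and H2-Aa, but Cd74 was above H2-K1 inside each library, while H2-K1 and H2-Aa changed places between the libraries. The ranges of the other neighbours in this order did not overlap.

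**Figure D1:**
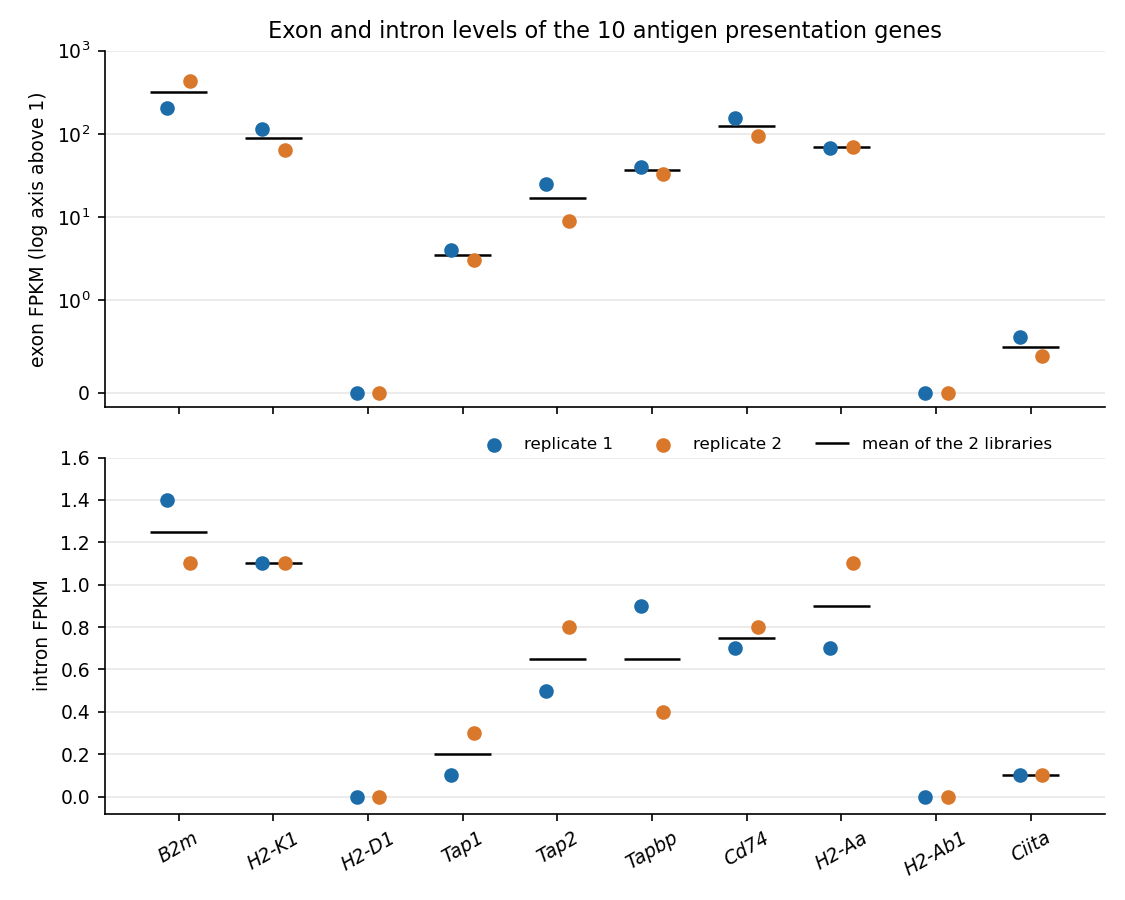
Exon FPKM (upper panel, log axis above 1) and intron FPKM (lower panel, linear axis) of the 10 genes, with a point for each library and a line at the mean of the 8 genes that had values. B2m exons lie highest, at 202.4 and 432.8, and H2-D1 and H2-Ab1 lie at 0 in both panels.

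B2m spans chr2:122147687-122153082 on the plus strand of GRCm38.p6, the build also known as mm10. Exons were at 202.4 FPKM in replicate 1 against 432.8 in replicate 2 (mean 317.6 ± 162.9, SD, n = 2). This placed B2m at rank 66 among the genes used, above 99.7% of them. Replicate 2 was the higher library, and the gap between the libraries was wide. In tissue RNA such as this, fewer cells of a type and less RNA per cell cannot be told apart. B2m lies opposite Patl2 in the GENCODE annotation, with 0 shared exon bases, and Patl2 exons were at 0 and 0.1 FPKM.

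H2-K1 spans chr17:33996012-34000619 on the minus strand. Exons were at 114.6 FPKM in replicate 1 against 65 in replicate 2 (mean 89.8 ± 35.1, SD, n = 2). In contrast to B2m, replicate 1 was the higher library. H2-D1, at chr17:35263094-35267497 on the plus strand, encodes the other classical heavy chain of C57BL/6 mice and was listed at 0 throughout.

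Promoter sequence is shown for both classical heavy chain genes, because they share letters upstream, and for B2m and H2-Aa, the other class I and class II chains with an entry. Windows from 250 bases before to 50 bases after the start were available in the RefSeq promoter table for 6 of the 10 genes, B2m, H2-K1, H2-D1, Tap1, Tapbp and H2-Aa. Tap2, Cd74, H2-Ab1 and Ciita had no entry there. The start used for H2-K1 is the most upstream among its curated transcripts, at 34000347, which lies inside the span given above because predicted transcripts begin further upstream. Exons of predicted H2-K1 transcripts cover all 250 bases before that start, and an exon of a GENCODE transcript covers all 250 bases before the RefSeq start of H2-D1, so only 30 bases around a motif are printed for these genes. They are chr17:34000438-34000467 for H2-K1 and chr17:35262914-35262943 for H2-D1. For B2m and H2-Aa the 250 bases before the start are printed, chr2:122147437-122147686 and chr17:34287824-34288073. All are from GRCm38.p6, 5′ to 3′ on the strand of the gene. Capitals mark matches, on either strand, to CCAAT (read as ATTGG on the other strand), GAAANNGAA, GGGATTCCC, TGACGTCA or AGNNACNGA, where N is any base.
H2-K1: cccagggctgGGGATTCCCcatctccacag
H2-D1: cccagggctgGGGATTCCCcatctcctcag
B2m: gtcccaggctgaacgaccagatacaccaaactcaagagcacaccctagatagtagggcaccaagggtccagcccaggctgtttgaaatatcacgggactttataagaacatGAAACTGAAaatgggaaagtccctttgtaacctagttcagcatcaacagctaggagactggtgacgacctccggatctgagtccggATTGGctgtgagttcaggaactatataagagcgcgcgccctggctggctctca
H2-Aa: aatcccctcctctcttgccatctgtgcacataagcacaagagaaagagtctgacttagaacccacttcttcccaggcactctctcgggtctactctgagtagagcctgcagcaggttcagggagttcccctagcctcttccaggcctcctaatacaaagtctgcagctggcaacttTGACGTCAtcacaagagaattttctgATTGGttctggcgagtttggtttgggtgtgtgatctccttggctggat

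GGGATTCCC was found in the windows of H2-K1 and H2-D1 and in 0.353% of the 32851 promoter windows. Because annotations place the starts of these genes differently, its distance from the start is not compared. Local alignment of the 250 bases before the RefSeq starts of H2-K1 and H2-D1 paired 177 bases, of which 161 (91%) were identical. CCAAT was present in the windows of all 6 genes with an entry, and in 37.4% of all windows. GAAANNGAA was found in B2m alone among the 6, and in 8.56% of all windows. TGACGTCA, which reads the same on both strands, was found in H2-Aa alone, 74 bases before the start, and in 1.79% of all windows. AGNNACNGA lay after the start in B2m and Tapbp and was found in 17.7% of all windows. These matches describe letters and not binding.

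The coding sequences of H2-K1 and H2-D1 were 91.5% identical over 1080 aligned bases, so some reads of class I heavy chain genes cannot be assigned to 1 gene. How reads that map to several places were treated is not stated, and levels of these genes are uncertain for that reason. Of the 1370 stretches of 50 bases in the exons of H2-D1, 288 (21%) also occurred elsewhere on the primary chromosomes. The share was 7.81% for H2-K1. Among listed class I heavy chain genes, 7 of the 9 with a share of 20% or more were at 0 in exons of both libraries, and 0 of the 7 with a lower share were. The exceptions were H2-T23, a nonclassical heavy chain gene, at 39.9%, and H2-Q7 at 58.7%. Among listed class II chain genes, 2 of 2 with a share of 20% or more were at 0, and 5 of 8 with a lower share were, H2-Ab1 (0 of 924 stretches) among them. The limit of 20% was chosen after these values were seen. The part of shared sequence in the zeros was not tested.

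**Figure D2:**
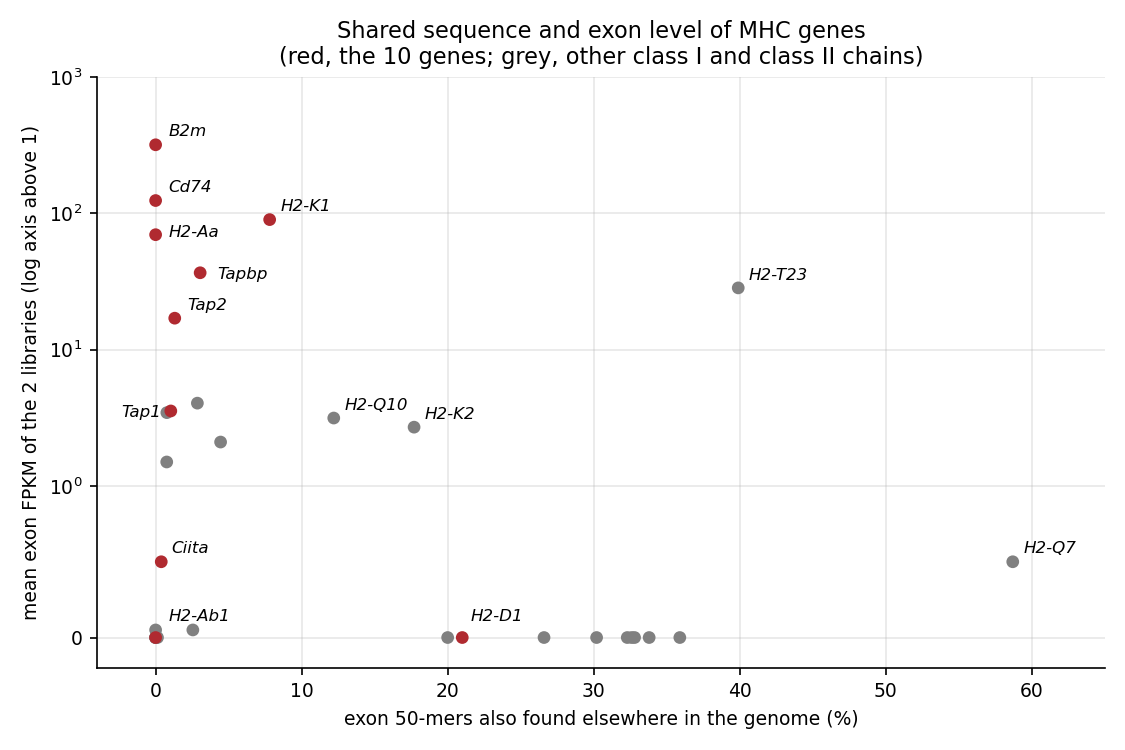
Percent of exon stretches of 50 bases that also occur elsewhere in the genome (horizontal axis) against mean exon FPKM of the 2 libraries (vertical axis, log above 1), for the 10 genes in red and other class I and class II chain genes in grey. Of 11 chain genes at 20% or more, 9 lie at 0 FPKM, H2-D1 among them, and of 15 below 20%, 5 lie at 0, H2-Ab1 among them.

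Zeros of this kind were not particular to MHC genes. Among 20515 genes with a usable symbol, 6068 (29.6%) were at 0 in all 4 columns, and among 18298 protein-coding symbols 4612 (25.2%) were. Ide, a protease gene in the list of peptide-generating genes, and Acta2, the smooth muscle actin gene of myoepithelium, were among them. So were Cox6b1, a subunit of cytochrome c oxidase, and Actr1a, a subunit of dynactin, which were picked as examples after their values were seen. The shares of 29.6% and 25.2% include genes that the gland may not express, so they are not a matched background for expressed genes. Among the chain genes, 9 of 11 at or above the 20% limit and 5 of 15 below it were at 0 in exons. Because genes used by every cell were at 0 as well, H2-D1 and H2-Ab1 are described only as listed at 0, and no fold was computed against them.

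The peptide-loading genes were lower than B2m. Tapbp, at chr17:33919478-33929290, had 40.3 exon FPKM in replicate 1 against 32.9 in replicate 2 (mean 36.6 ± 5.23, SD, n = 2). Tap2, at chr17:34204479-34216321, had 25.0 and 9.0, a mean of 17 ± 11.3 (SD, n = 2). Tap1, at chr17:34187556-34197225, had 4.0 and 3.1, a mean of 3.55 ± 0.636 (SD, n = 2). Tap2 thus lay above Tap1 in both libraries. In the GENCODE annotation Tapbp shares 149 exon bases with Zbtb22 (11.3 and 5.1 FPKM) on the same strand, and 904 with Gm19412 on the opposite strand. Strand cannot separate reads of Tapbp and Zbtb22 over their shared bases. On opposite strands, Tap1 shares 212 exon bases with Psmb9 (2.7 and 3.9 FPKM), and Tap2 shares 533 with Gm15821 and 165 with Gm20496. Whether the counting used strand is not stated, so reads of Tapbp, Tap1 and Tap2 cannot be told apart from those of their antisense partners over the bases shared with them.

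Of the class II genes, Cd74, at chr18:60803849-60812652, had 154.4 exon FPKM in replicate 1 against 93.4 in replicate 2 (mean 123.9 ± 43.1, SD, n = 2). H2-Aa, at chr17:34282744-34287823, had 68.6 and 70.6, a mean of 69.6 ± 1.41 (SD, n = 2). Of the 8 genes with values, H2-Aa had the smallest SD relative to its mean in the deposited scaling. With each library rescaled to a common sum, its log2 ratio of replicate 2 over replicate 1 was -1.01, against 0.03 for B2m. Its partner chain gene H2-Ab1, at chr17:34263227-34269418, was listed at 0.

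Ciita, at chr16:10480014-10531064, was low. Exons were at 0.6 FPKM in replicate 1 against 0.4 in replicate 2 (mean 0.5 ± 0.141, SD, n = 2), and Ciita ranked above 46.1% of the genes used. The transactivator transcript was therefore listed far below Cd74 and H2-Aa in both libraries. With 1 decimal deposited, a level this low is known only to a coarse step. Ciita shares 329 exon bases with the opposite-strand gene Dexi, which had 6.1 and 3.5 FPKM.

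Intron levels were low throughout. The highest was B2m with 1.4 in replicate 1 and 1.1 in replicate 2, and H2-K1 followed with 1.1 in both. H2-Aa introns were at 0.7 and 1.1 FPKM, and Cd74 introns at 0.7 and 0.8. Intron FPKM as a share of exon FPKM, taken from the means, was 0.394% for B2m, 0.605% for Cd74, 1.22% for H2-K1, 1.29% for H2-Aa and 1.78% for Tapbp. The median share was 3.49% over the 3112 genes whose exons averaged 10 FPKM or more, so these 5 genes lay below it. Tap2 was at 3.82%, but its share was 2% in replicate 1 and 8.89% in replicate 2, on either side of that median. B2m introns were higher in replicate 1 and its exons in replicate 2. The intron values carry 1 decimal, and differences of 0.1 are a single step.

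For differences between the libraries, the log2 ratio of replicate 2 over replicate 1 was taken from exon FPKM + 1, which understates the difference for low genes. Exons had to average 1 FPKM or more, and 7 of the 10 genes met it. Of these, 2 were more than 2-fold apart, against 5.90% of the 9845 genes tested. B2m was higher in replicate 2, with a log2 ratio of 1.09, where 1.08% of all genes were higher by more than 2-fold. Tap2 was lower in replicate 2, with a log2 ratio of -1.38, where 4.82% of all genes were lower by that much. In the deposited scaling, H2-K1 (-0.81) and Cd74 (-0.72) were less than 2-fold apart, and Tap1 (-0.29), Tapbp (-0.28) and H2-Aa (0.04) differed little. The median over the 7 genes was -0.29, and that over all genes tested was -0.08. With 1 library on each side, these are sizes without a test, and 7 genes are too few to read a share from.

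The ratio moved with base composition across all genes. Its median was 0.29 in genes whose exons held less than 45% GC and -0.58 in genes with 55% GC or more. B2m exons held 41.3% GC and Tap2 exons 58.8%, the lowest and highest values of the 7 genes. After a lowess curve of the ratio on GC content was subtracted, the log2 ratio of B2m was 0.77 and that of Tap2 was -0.71. No member was then more than 2-fold apart, against 1.91% of all genes. H2-K1 was at -0.38 and Cd74 at -0.23 after this correction, and Tap1, Tapbp and H2-Aa were slightly above 0, at 0.27, 0.24 and 0.15. The median over the 7 genes was then 0.15, on the other side of 0. The part of GC content in these differences was not tested further.

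**Figure D3:**
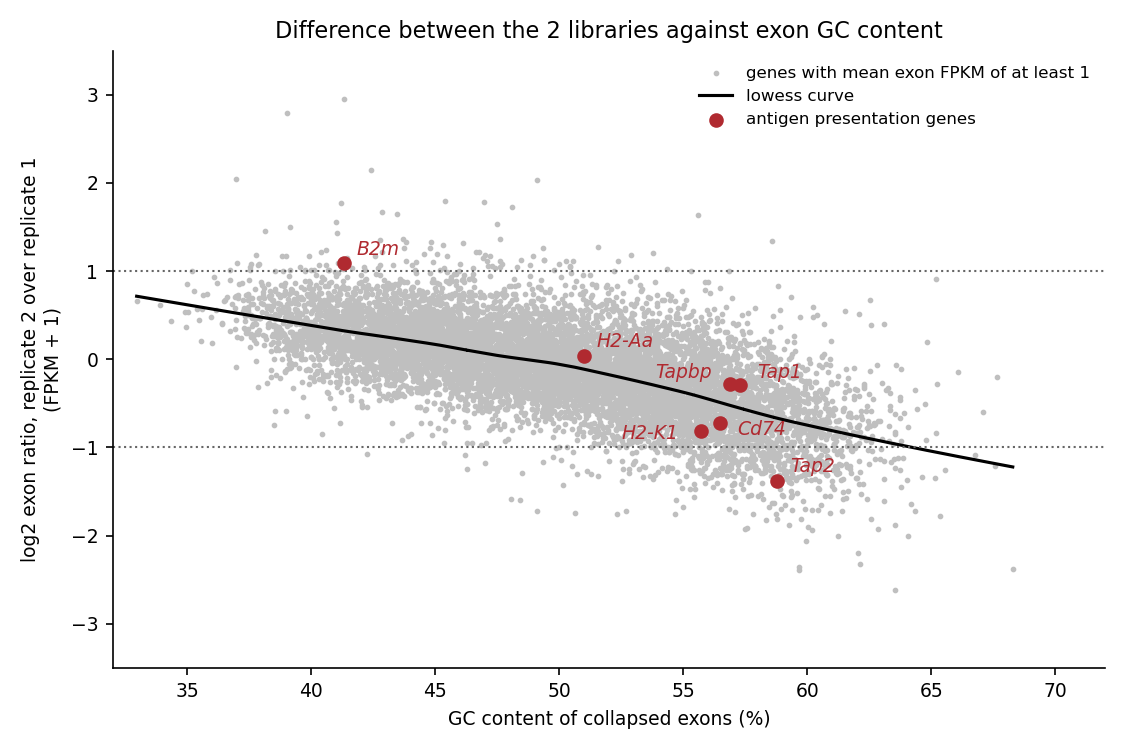
log2 exon ratio of replicate 2 over replicate 1 (vertical axis) against GC content of collapsed exons in percent (horizontal axis) for all genes tested (grey, exons averaging 1 FPKM or more), with a lowess curve (black) and 7 antigen presentation genes (red); dotted lines mark 2-fold. B2m lies above the upper line at 41.3% GC and Tap2 below the lower line at 58.8%.

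Scaling also mattered for these ratios. All exon FPKM added up to 852961 in replicate 1 against 1788119 in replicate 2. Rescaling each library to a common sum moved the median log2 ratio of all genes by -0.83. Relative to the median of all genes, B2m was then at 0.93 and Tap2 at -1.43. Without that centring the median of all genes was -0.90 and B2m was at 0.03. The other tested members were then more than 2-fold lower in replicate 2: Tap2 at -2.33, H2-K1 at -1.86, Cd74 at -1.77, Tapbp at -1.31, Tap1 at -1.06 and H2-Aa at -1.01. With the 10 highest genes left out of the sum, B2m was at 1.19 and Tap2 at -1.36 relative to the median of all genes.

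Ratios inside a library do not depend on its scaling. H2-K1 over B2m was 0.566 in replicate 1 and 0.15 in replicate 2, with H2-D1 listed at 0 and not part of it. On the log2 scale of FPKM + 1 this gap between the libraries was -1.90, and -1.15 after the GC correction. Cd74 over H2-K1 was 1.35 and 1.44, a mean of 1.39 ± 0.0634 (SD, n = 2), the steadiest of the 6 ratios. Cd74 over H2-Aa was 2.25 and 1.32, a mean of 1.79 ± 0.656 (SD, n = 2). H2-Aa over H2-K1 was 0.599 and 1.09, which lie on opposite sides of 1. Ratios to B2m were 0.339 and 0.163 for H2-Aa and 0.763 and 0.216 for Cd74. Ratios with H2-D1 or H2-Ab1 could not be formed.

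Other genes of the pathway were described from lists. Of 14 other class I heavy chain genes, 6 were at 0 in exons of both libraries (H2-Q1, H2-Q2, H2-Q4, H2-Q6, H2-T10 and H2-T22). H2-T23 was the highest, with 40.0 and 16.7 FPKM, and was the 1 gene of the 6 tested that was more than 2-fold apart, against 5.90% of all genes tested. After the GC correction its log2 ratio was -0.82 and the count was 0, against 1.91% of all genes. With a pseudocount of 0.1 the count was 2, against 11.2% of all genes. H2-M2 had 2.8 and 5.3 FPKM, and H2-Q10 had 2.7 and 3.6. The median log2 ratio of the 6 was -0.34, and -0.09 after the GC correction.

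Of 15 genes for class I peptide generation and loading, 14 were tested and 1, the immunoproteasome subunit gene Psmb10, named here after its values were seen, was more than 2-fold lower in replicate 2 (7.2 and 2.8 FPKM), against 4.82% of all genes. After the GC correction its log2 ratio was -0.62 and the count was 0, against 1.91% more than 2-fold apart among all genes. With a filter of 10 FPKM the count was also 0, against 7.42% of 3112 genes. The chaperone calreticulin gene Calr led with 269.9 and 195.8 FPKM, followed by calnexin, Canx, with 57.1 and 57.3. Pdia3, a disulfide isomerase of the loading complex, had 29.6 and 43.9 FPKM. Psme1, a proteasome activator subunit, had 23.2 and 16.7. Psme3, another activator subunit, had 15.2 and 22.9 FPKM, and the aminopeptidase gene Lap3 had 20 and 17. Ide was listed at 0. The list had a median log2 ratio of 0.05.

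The list of other class II chains and their loading held 15 symbols, of which 12 were listed. H2-Ea is another symbol of H2-Ea-ps, which was listed, and March1 and Marchf1, an older and a newer symbol of 1 gene, were not. Of the 12 listed, 6 were at 0 in exons of both libraries (H2-Ea-ps, H2-Eb1, H2-Eb2, H2-DMb1, H2-DMb2 and H2-Ob). The E alpha gene is not functional in the haplotype of C57BL/6 mice. Ctsl, an endosomal protease gene, led the list with 107.2 and 78.5 FPKM. Ifi30, a lysosomal thiol reductase gene, had 74.5 and 63.0 FPKM, and the protease gene Ctss had 39.0 and 31. Lgmn had 11.6 and 9.2. H2-DMa, a chain of the peptide exchange factor, had 3.2 and 3.7 FPKM, and H2-DMb1 and H2-DMb2, which encode its partner chain, were listed at 0. None of the 5 genes tested was more than 2-fold apart, against 5.90% of all genes, and their median log2 ratio was -0.30.

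Of 19 regulators of MHC genes, 14 were tested and 0 were more than 2-fold apart, against 5.90% of all genes. The median log2 ratio of the 14 was 0.03. Ifngr1, a chain of the interferon gamma receptor, had 72.1 and 64.7 FPKM. The receptor-associated kinase genes Jak1 and Jak2 had 31.2 and 35.1 FPKM and 10.7 and 12 FPKM. Ifngr2 had 9.6 and 10.9. Ifng itself was listed at 0 in both libraries. Irf1, an interferon-induced factor, had 8.6 and 5.7 FPKM.

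Of 9 MHC-like and Fc receptor genes, 7 had values above 0 in exons and 6 were tested. Cd1d1, which presents lipids, had 7.5 and 10.2 FPKM. Fcgrt, the heavy chain of the neonatal Fc receptor that pairs with beta-2 microglobulin, had 10.5 and 3.9 FPKM and was the 1 gene of this list more than 2-fold apart, against 5.90% of all genes. After the GC correction its log2 ratio was -0.79 and the count was 0, and with a pseudocount of 0.1 the count was 2, against 1.91% and 11.2% of all genes. The list had a median log2 ratio of 0.28. Cd1d2 and Raet1e were listed at 0 in exons.

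Of 8 costimulation genes, 4 were tested and 0 were more than 2-fold apart, against 5.90% of all genes. The median log2 ratio was 0.03, and 0.14 after the GC correction. Cd83 had 1.2 and 1.8 FPKM, and Cd274 had 1.7 and 1.2. Icam1 had 1.6 and 1.1 FPKM, and Cd86 had 0.8 and 1.4. Pdcd1lg2 was listed at 0. None of these genes had a mean exon FPKM of 10 or more.

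**Figure D4:**
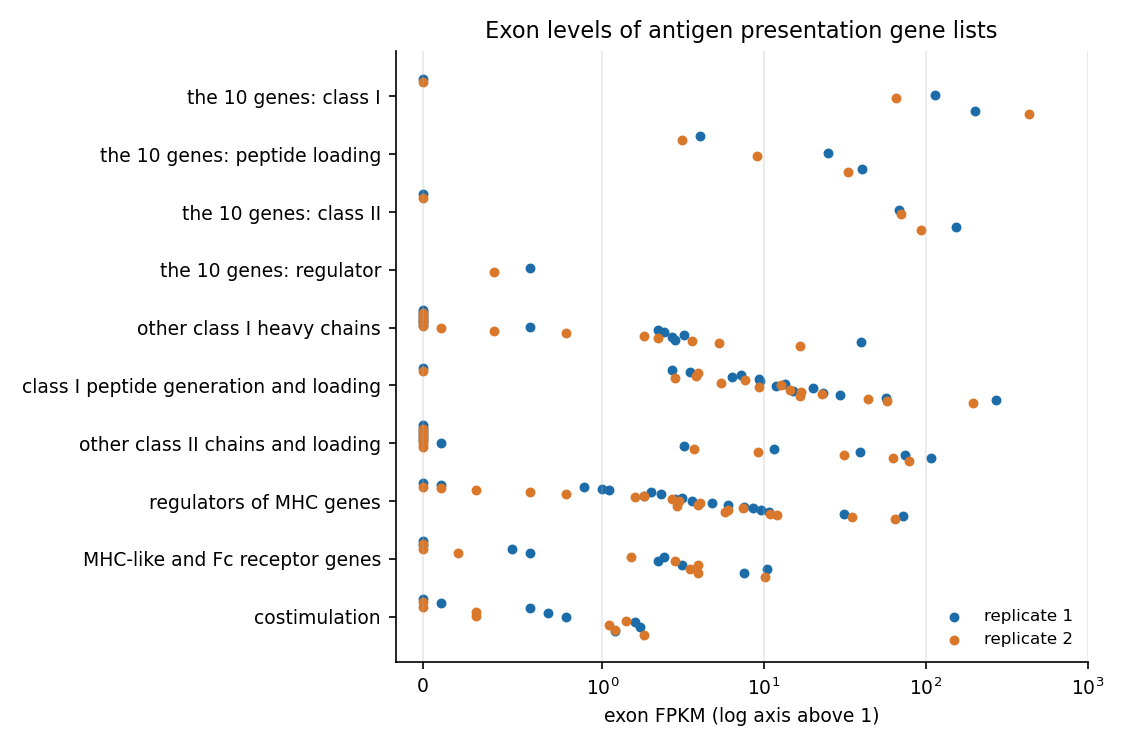
Exon FPKM (horizontal axis, log above 1) of each gene of 10 lists of antigen presentation genes, with a point for each library. The 10 genes fill the 4 upper lists, Calr lies highest among the other lists, at 269.9 and 195.8, and many chain genes lie at 0.

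Markers of the cell types that a mammary gland can hold were summed as exon FPKM for each library. All 9 secretory epithelium markers were above 0, with sums of 339969 in replicate 1 and 877524 in replicate 2. The casein gene Csn2 led on the mean and in replicate 2, but in replicate 1 Wap was higher (172934.6 against 108555 FPKM). Of the 9, 2 were more than 2-fold higher in replicate 2 (Csn2 and Csn1s1) and 2 more than 2-fold lower, Krt8 with 31.4 and 14.6 FPKM and Krt18 with 145 and 57.6, against the 1.08% and 4.82% of all genes given above. After the GC correction 2 were higher and 0 lower. The labelled tissue thus showed its defining markers. All 10 macrophage markers were above 0, with sums of 133.9 and 81.6, led by the complement gene C1qa (44.8 and 19.6 FPKM), which was the 1 macrophage marker of 9 tested more than 2-fold lower in replicate 2 and was at a log2 ratio of -0.45 after the GC correction. The defining macrophage gene Adgre1 had 3.2 and 1.8 FPKM.

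All 5 leukocyte markers were above 0, with sums of 22.7 and 27.7, led by Cd52 (8.9 and 15.2 FPKM). Coro1a, with 4.4 and 1.5 FPKM, was more than 2-fold lower in replicate 2, and at a log2 ratio of -0.46 after the GC correction. Of 8 dendritic cell markers 7 were above 0, with sums of 4.7 and 4.9, led by Itgax (2.0 and 1.7 FPKM), and Xcr1 was listed at 0. Of 7 B cell markers 5 were above 0, with sums of 1.5 and 1.3, led by Cd79b, and Pax5 and Cr2 were listed at 0. All 5 listed plasma cell markers were above 0, with sums of 118.2 and 96.7, led by Jchain (107.4 and 89.3 FPKM). The 8 T cell markers summed to 1.3 and 2.4, led by Lck on the mean. Cd2 was higher than Lck in replicate 1, and Cd8b1 in replicate 2. The 4 NK cell markers summed to 1.8 and 2.9, led by Gzma. Of 4 granulocyte markers 3 were above 0, with sums of 1.6 and 3.4, and Ly6g was listed at 0. S100a8 led on the mean, with 0.5 and 2.5 FPKM, and was more than 2-fold higher in replicate 2. After the GC correction its log2 ratio was 0.96. S100a9 had 0.9 and 0.7 FPKM, above S100a8 in replicate 1, and Csf3r had 0.2 in both.

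Among the other tissue cells, 5 of 6 myoepithelium markers were above 0, with sums of 113.5 and 72.6, led by Myh11, and Acta2 was listed at 0. Krt14, with 17.9 and 5.4 FPKM, was more than 2-fold lower in replicate 2 before the GC correction (log2 ratio -1.56) and after it (-1.02). The 6 endothelium markers summed to 53.3 and 46.5, led by Cdh5. The 5 adipocyte markers summed to 1292 and 1120, led by Cfd on the mean and in replicate 1, and by Fabp4 in replicate 2. Plin1, with 7.8 and 2.6 FPKM, was the 1 adipocyte marker more than 2-fold apart, and was at a log2 ratio of -0.46 after the GC correction. The 5 fibroblast markers summed to 152.3 and 155.6, with Dcn and Lum higher and Col3a1 and Col1a1 lower in replicate 2. Dcn had 42.9 and 78.4 FPKM, Lum 11.1 and 18.6, Col3a1 71.2 and 43.6, and Col1a1 23.5 and 11.2. Of these, Col1a1 was more than 2-fold apart, and was at a log2 ratio of -0.33 after the GC correction. The markers more than 2-fold apart were named after their values were seen, and 5.90% of all genes were as far apart, 1.08% higher and 4.82% lower, and 1.91% after the GC correction. The part of any of these cell types in the levels of the antigen presentation genes was not tested.

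**Figure D5:**
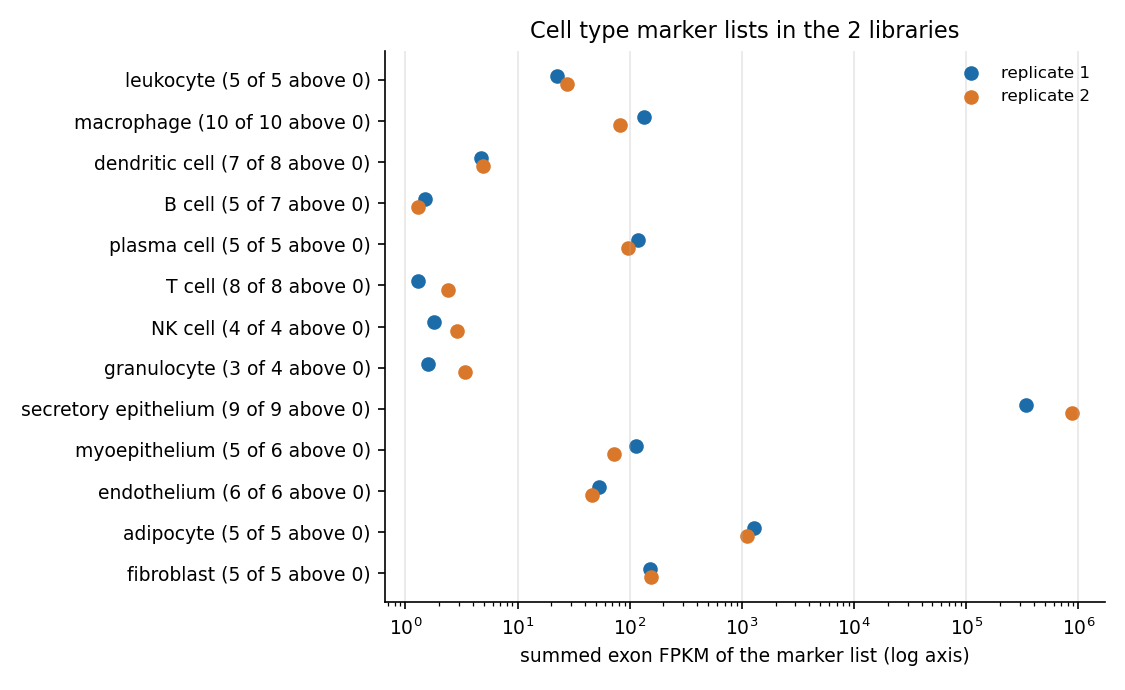
Summed exon FPKM of 13 marker lists (horizontal axis, log) with a point for each library and the number of listed markers above 0 beside each name. The secretory epithelium lies highest, at 339969 and 877524, and the B cell sums are 1.5 and 1.3.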

How the data were processed

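Total RNA from L10 mammary tissue was made into stranded libraries and sequenced on an Illumina HiSeq. Per the study's methods, the authors used STAR with the mm10 genome, merged exons per UCSC known gene, counted reads on exons and introns with HTSeq and deposited FPKM values from DESeq2; versions, strand setting and treatment of reads with several matches are not stated. Depth is unknown. From these FPKM, 35 of 20550 rows without a usable symbol were left out. Means, SDs, ratios, counts over lists and a lowess correction (span 0.3) for RefSeq exon GC content were computed in Python 3.11.15 with statsmodels 0.14.6; alignments used Biopython 1.88. The correction was tested on simulated data. Values were given for all 10 genes, and for at most 6 genes of a list in order of mean exon FPKM. They were also given for Psmb10, for leading, defining and some other markers, and for list genes at 0. The values of 1 list gene are not reported here. Members and lists were chosen with earlier results of these data known, and the checks on shared sequence, overlaps and genes at 0 were added after the values were seen.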

Additional observations from a re-analysis of the deposited data

How the results depend on the processing

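Of 184 values recomputed under other settings, 57 could not move by more than the SD of the 2 libraries (either of 2 libraries left out, or a filter that leaves a single gene's ratio as it is). Of the other 127, 82 moved by less than that SD or 1.5 times a count and 45 by more, where a log2 ratio that crossed 2-fold counts among the 45. This SD is a wide limit, so the 82 are no measure of stability. Among the 82 was Cd74, with a log2 ratio of -0.72 and of -0.23 after the GC correction. Tap2, at -1.38 and at -2.33 after rescaling to a common sum, was another. B2m and Tap2 both fell under 2-fold after the GC correction. The count of antigen presentation genes more than 2-fold apart was 2 with no filter and with centring, where no share of all genes is given as background. It was also 2 under another pseudocount (0.1, against 11.2% of all genes) and a filter of 10 (against 7.42%, with a median log2 ratio of -0.50 in place of -0.29). It was 0 after the GC correction, where their median log2 ratio was 0.15 and so on the other side of 0, and 6 after each library was rescaled to a sum of 1000000, a setting chosen after seeing the data, under which 42.6% of all 9845 genes were more than 2-fold apart and the median log2 ratio of the antigen presentation genes was -1.31. It was 2, against 10.2% of all genes, with the 10 highest genes left out of that sum, also chosen after seeing the data, which raised each mean level by a common factor for each library. Median log2 ratios of the lists for peptide generation and for regulators, 0.05 and 0.03, were -0.05 and -0.09 after the GC correction, and without a filter those for regulators and costimulation were -0.07 and -0.30. With 2 libraries, leaving out either returns the value of the other. Ratios with H2-D1 or H2-Ab1 gave no value. Depth is unknown, so it sets no stated limit on low values such as those of Ciita. No paired analysis was possible because only 1 group was measured.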
